A study of Homo sapiens with 15 samples.

Results

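The 9 genes described here are NQO1, HMOX1, GCLC, GCLM, TXNRD1, SRXN1, OSGIN1, FTL and FTH1, a set of antioxidant and iron-storage genes known as targets of the transcription factor NRF2. They were chosen by symbol, and each symbol matched 1 gene identifier among the 58721 annotated genes of the deposited tables. All 9 were measured in every library and passed a low-count filter that kept 14961 genes, with at least 252 counts each in any library (the lowest being HMOX1). No measured value was used to choose them by the rule, but the set was put forward with earlier results of these data known.

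RNA sequencing covered 5 lines made from the human melanoma cell line MelJuSo, each represented by 3 libraries (replicates A, B and C). Every line carries dCas12a, a form of Cas12a that no longer cuts DNA but is still led to it by a guide RNA, with a 5xALFA tag, and a nanobody, a small antibody fragment that binds such a tag. In 4 of the lines dCas12a is also fused to VP64, a strong activation domain of viral origin (5xALFA-dCas12a-VP64). The VP64 line with guides has nanobody-VP64 and a cassette of 3 guides aimed at CD4, and the p65 line with guides has nanobody-p65 and the same kind of cassette. The VP64 and p65 lines without guides have the same protein constructs and no guides against CD4. The line without an activation domain has 5xALFA-dCas12a, the nanobody alone and no guides against CD4. Lines with and without guides are different lines, so an effect of the guides and any other difference between the lines cannot be told apart. The same holds for lines with different nanobodies and for lines with and without an activation domain. The labels do not say whether the 3 libraries came from separate cultures, or whether a line is 1 clone, so p-values measure the spread between these samples, which may be technical.

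The libraries held 15643705 to 23072512 expected counts each. CD4, the targeted gene, averaged 924 ± 27.0 TPM in the VP64 line with guides and 1002 ± 56.1 TPM in the p65 line with guides, against 4.24 ± 0.397 and 5.31 ± 0.382 TPM in the same lines without guides and 1.57 ± 0.906 TPM in the line without an activation domain (SD, n = 3 each). TPM is an abundance that is scaled for transcript length and sums to the same total in every library. Of 8 melanocyte and melanoma markers, 7 reached 1 TPM, led by SOX10 (122 to 237 TPM) and S100B (34.9 to 195 TPM), whereas MLANA stood at 0 to 0.53 TPM. Their summed level was 392 to 462 TPM in the VP64 line with guides and 277 to 365 TPM in the p65 line with guides, against 210 to 230, 187 to 204 and 206 to 213 TPM in the VP64 and p65 lines without guides and the line without an activation domain. The markers of blood cells, epithelium, and endothelium and fibroblasts summed to at most 6.8 TPM per list in any library. Of these lists 3 of 5, 3 of 4 and 2 of 4 markers also reached 1 TPM in some library. MITF (2.88 to 4.39 TPM), TYR (2.72 to 5.59), TYRP1 (1.03 to 4.92) and DCT (0.77 to 1.66) overlapped in range with EPCAM (1.64 to 3.06) and CD14 (0.49 to 4.23). Only SOX10, S100B and PMEL (7.08 to 15.1 TPM) stood clear of the other lists. The sum of the melanocyte markers thus moved with the guides, and its part in the results below was not tested. Levels are averages over all cells of a sample, so fewer expressing cells and less RNA per cell cannot be told apart.

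NRF2, encoded by NFE2L2, is held in the cytoplasm and marked for degradation by KEAP1, and it accumulates when electrophiles or oxidants modify KEAP1. In the nucleus it pairs with small MAF proteins at antioxidant response elements, where BACH1 can take its place and repress. Ferritin, made of FTH1 and FTL chains, stores iron in a form that does not catalyse oxidation, and besides NRF2 at the gene, iron regulatory proteins control the translation of its mRNA. In melanoma, as in other cancers, NRF2 targets are studied for their link to resistance to oxidative stress.

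The antioxidant response element is shown because it is the DNA feature that defines targets of NRF2. Its core, TGACNNNGC, was searched on both strands in RefSeq windows of 300 bases (GRCh38.p14, 250 bases before to 50 after a transcript start). It was present in 13.3% of 35116 windows of that length. Of the 9 genes, 7 had a window (all but HMOX1 and FTH1), with 8 windows in all, and 3 windows, of GCLM and TXNRD1, held the core. The stretches before the transcript start that carry it follow, each on the strand of its gene with the core or its reverse complement in capitals.
GCLM, chr1:93909441-93909479, minus strand: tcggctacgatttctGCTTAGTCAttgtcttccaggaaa
TXNRD1, chr12:104286915-104286953, plus strand: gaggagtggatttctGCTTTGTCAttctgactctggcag
TXNRD1, chr12:104215665-104215703, plus strand: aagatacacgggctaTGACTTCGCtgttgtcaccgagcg
The core lay 34 to 26 bases before the GCLM start, and 102 to 94 and 99 to 91 bases before the transcript starts of the TXNRD1 windows in the order shown. A further match in the window of the last stretch spanned the transcript start, with 8 bases before it and 1 from it on, and is not shown. A match describes the letters only. Sequence outside these windows was not searched, so a window without the core does not show that the gene lacks the element.

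The iron-responsive element is shown because FTH1 and FTL, the ferritin chains, share it in the 5′ untranslated region. It folds into a hairpin whose loop is bound by the iron regulatory proteins, encoded by ACO1 and IREB2, when iron is low, and this blocks translation. The 28 bases around the loop, from the GENCODE release 29 transcripts FTH1-201 and FTL-201 (hg38), have the loop bases CAGTG in capitals.
FTH1, chr11:61967575-61967602, minus strand: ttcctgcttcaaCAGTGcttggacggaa
FTL, chr19:48965335-48965362, plus strand: ctcttgcttcaaCAGTGtttggacggaa
The elements of the 2 genes differed at 3 of these 28 bases. The element acts on translation, which RNA levels do not measure.

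In the lines with guides, ferritin heavy chain and the quinone reductase NQO1 were higher and the glutathione subunit GCLM and sulfiredoxin SRXN1 were lower than in the matching lines without guides. In the VP64 lines 3 of the 9 genes rose (NQO1, FTH1 and FTL) and 2 fell (GCLM and SRXN1), where 19.3% of all 14961 genes tested rose and 21.3% fell. In the p65 lines 2 rose (FTH1 and NQO1) and 2 fell (GCLM and SRXN1), where 18.7% of all genes rose and 20.2% fell. Here and below, "rose" and "fell" stand for an adjusted p under 0.05 in edgeR's quasi-likelihood test. The median log2 fold change of the 9 genes was 0.19 in the VP64 lines and -0.02 in the p65 lines, beside 0.00 and -0.01 over all genes. The guide comparisons share no library, and NQO1, FTH1, GCLM and SRXN1 passed in the same direction in each, as did 13.8% of all genes upward and 15.8% downward.

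The lines that carry an activation domain but no guides were set against the line that carries neither. Each differs from it both in the VP64 on dCas12a and in the domain on the nanobody. In these comparisons "with VP64" and "with p65" therefore name the line, not the effect of 1 domain. VP64 without guides had 4 of the 9 genes lower (NQO1, TXNRD1, GCLC and OSGIN1) and none higher, where 24% of all genes fell and 23.6% rose. At an unadjusted p under 0.05 the count of higher genes was also 0, as it was in DESeq2. DESeq2 called 3 lower, without OSGIN1. The p65 line without guides had 5 lower (NQO1, TXNRD1, OSGIN1, FTL and FTH1) and 1 higher (GCLM), where 24.9% of all genes fell and 24.7% rose. These comparisons share the 3 libraries without an activation domain, so they are not independent of each other. The libraries set against these are also the reference of the guide comparisons. Here and below, a shift in them moves both kinds of comparison in opposite directions. The median log2 fold change of the 9 genes was -0.22 for VP64 and -0.12 for p65, beside -0.01 over all genes in each.

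The p65 and VP64 lines differed in few of the 9 genes. Without guides, GCLM rose in the p65 line relative to the VP64 line and none of the 9 fell, where 0.388% of all genes rose and 1.72% fell. At an unadjusted p under 0.05, 3 rose and 2 fell, and DESeq2 called 1 higher and 0 lower. With guides, FTL and FTH1 fell and none rose, where 3.72% of all genes rose and 4.2% fell. At an unadjusted p under 0.05, 1 was higher and 4 were lower, and DESeq2 called 0 higher and 2 lower. The difference between the guide effects, p65 minus VP64, passed for none of the 9, where it was positive for 0.769% and negative for 0.187% of all genes. For that difference 1 gene was higher (SRXN1) and 2 were lower (GCLM and FTL) at an unadjusted p under 0.05, and DESeq2 called 0 in either direction.

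**Figure D1:**
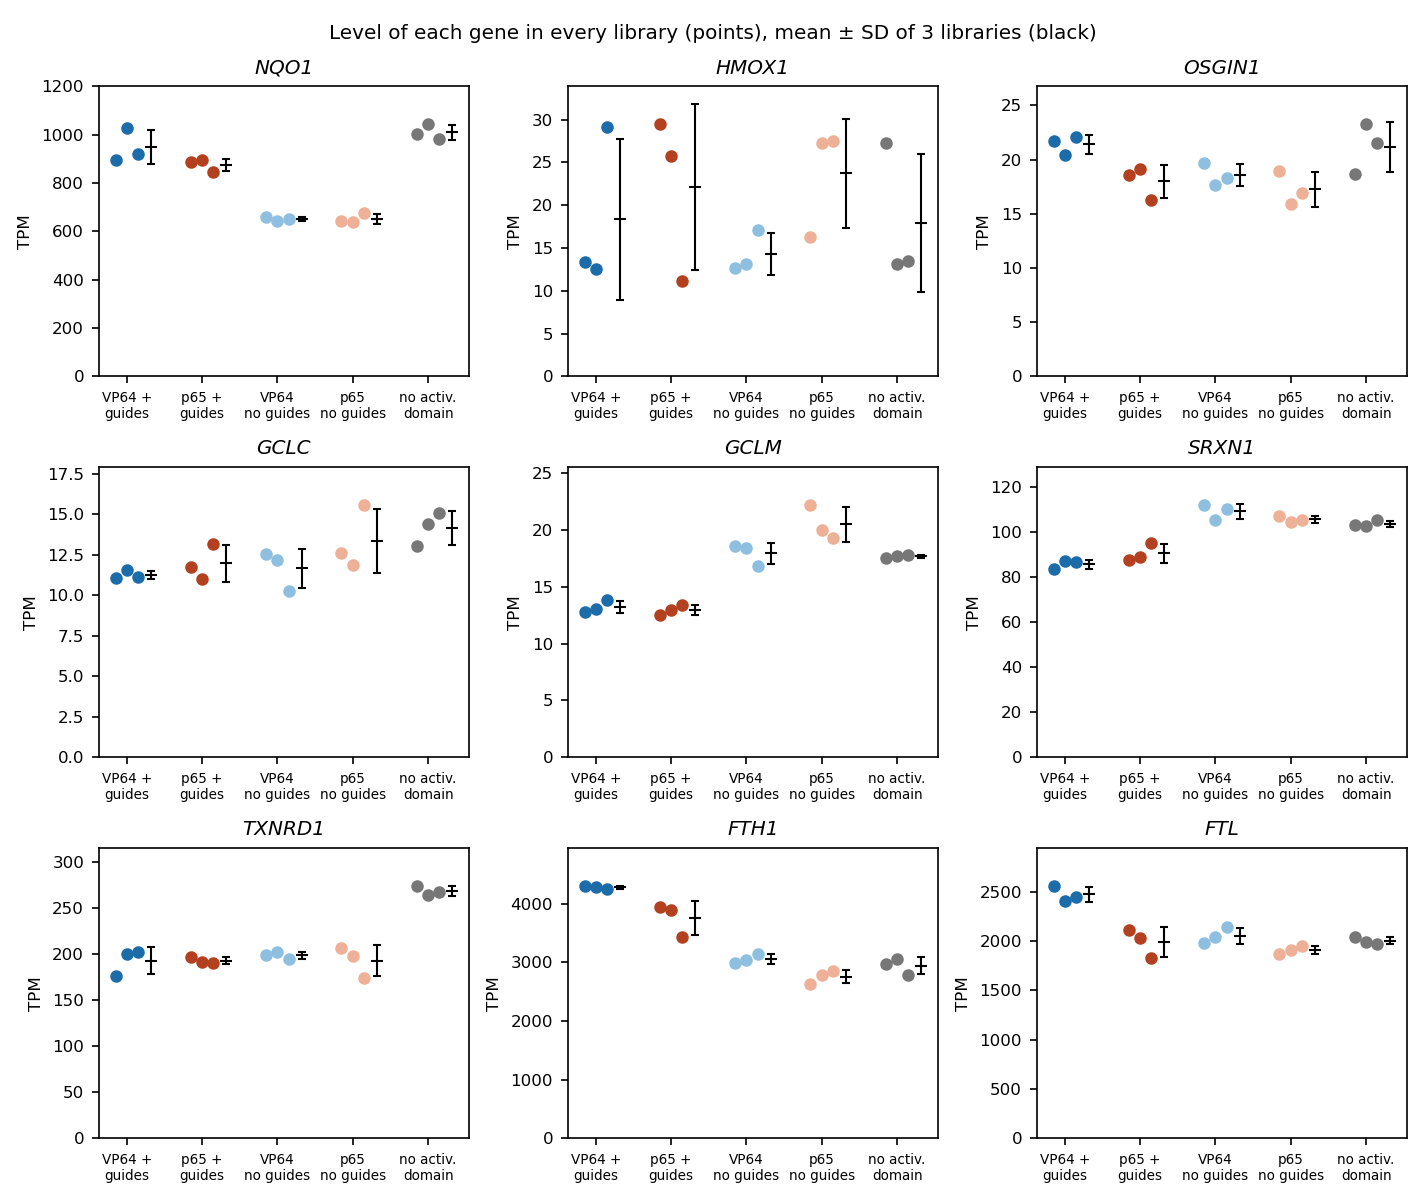
TPM of the 9 genes in each of the 15 libraries, by line, with guides at the left and the line without an activation domain at the right; black marks are the mean ± SD of 3 libraries. NQO1 is lowest in the lines with an activation domain and no guides (637 to 676 TPM), TXNRD1 is highest without an activation domain (264 to 274 TPM), GCLM and SRXN1 are lowest in both lines with guides, FTH1 is highest there, and HMOX1 is spread over 11.1 to 29.5 TPM with overlapping lines.

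FTH1 encodes the ferritin heavy chain, which oxidises iron as it enters the shell (chromosome 11, 61959718 to 61967660, minus strand, hg38). It had 4300.4, 4276 and 4249.9 TPM in the VP64 line with guides (replicates A, B and C), against 2983, 3043 and 3143 TPM in the VP64 line without guides. The p65 line with guides had 3945, 3885 and 3426 TPM, against 2631, 2787 and 2848 TPM in the p65 line without guides. Every library with guides was above every library without, including those without an activation domain (2976, 3058 and 2777 TPM). The log2 fold change with guides was 0.47 (SE 0.034, adjusted p = 4.5e-10) in the VP64 lines and 0.44 (SE 0.034, adjusted p = 1e-09) in the p65 lines, or rises of 38.2% and 35.9%. The difference between these effects was -0.02 (95% interval -0.12 to 0.07).

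Smaller differences of FTH1 lay between lines that differ in their activation domains. With guides it was lower in the p65 line than in the VP64 line (log2 fold change -0.12, adjusted p = 0.0263). That call was lost without VP64 replicate A or B or p65 replicate B or C. It was also lost with only the libraries compared and with an offset from effective lengths. Over all alternatives the adjusted p ran from 0.00787 to 0.131. Without guides it was lower with p65 than with no activation domain (-0.09, adjusted p = 0.0341), with overlapping libraries. This call was lost without p65 replicate A or B or the A or B library without an activation domain. It was also lost with DESeq2 size factors, no low-count filter, a replicate block or an offset from effective lengths, and passed in 7 of 15 alternatives (0.0244 to 0.168 over all alternatives). VP64 without guides and no activation domain had FTH1 at a log2 fold change of 0.01 (95% interval -0.06 to 0.08).

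FTL encodes the ferritin light chain, which helps form the iron core (chromosome 19, 48965301 to 48966878, plus strand). It had 2561, 2409 and 2451 TPM in the VP64 line with guides, against 1979, 2041 and 2144 TPM in the VP64 line without guides. The groups did not overlap, and the log2 fold change was 0.27 (SE 0.047, adjusted p = 8.46e-05). In the p65 line with guides it had 2117, 2031 and 1825 TPM, against 1871, 1907 and 1955 TPM in the p65 line without guides. Here the libraries overlapped, p65 replicate C with guides being the lowest of the 6, and the log2 fold change of 0.09 (95% interval 0.00 to 0.18) did not pass (adjusted p = 0.137). Without that library it was 0.145 and passed (adjusted p = 0.0102, with 0.0102 to 0.532 over all alternatives).

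With guides FTL was lower in the p65 line than in the VP64 line (log2 fold change -0.30, SE 0.047, adjusted p = 0.000236). It passed in all 15 alternatives, and the libraries did not overlap. The 3 libraries without an activation domain had 2044, 1990 and 1976 TPM of FTL, and p65 without guides was lower than these (-0.12, adjusted p = 0.037). That call was lost without p65 replicate A or B or the A or B library without an activation domain, and with an offset from effective lengths (0.00718 to 0.174 over all alternatives).

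The ratio of FTH1 to FTL in TPM, computed after the levels had been seen and given with no test, set the lines with guides apart from the rest. It was 1.68, 1.78 and 1.73 in the VP64 line with guides and 1.86, 1.91 and 1.88 in the p65 line with guides. It was 1.51, 1.49 and 1.47 in the VP64 line without guides, 1.41, 1.46 and 1.46 in the p65 line without guides, and 1.46, 1.54 and 1.41 without an activation domain. No library with guides overlapped with one without, and the 2 lines with guides did not overlap with each other. Both chains together made up 0.668% to 0.686% of all TPM in the VP64 line with guides and 0.525% to 0.606% in the p65 line with guides. The share was 0.496% to 0.529% and 0.45% to 0.48% in the same lines without guides and 0.475% to 0.505% without an activation domain. Ferritin pseudogenes took up few reads: 25 annotated FTH1 copies held at most 0.318% of the counts of FTH1 in a library, and 16 FTL copies at most 0.0574% of those of FTL.

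NQO1 encodes a quinone reductase that turns quinones into hydroquinones and is one of the most used readouts of NRF2 (chromosome 16, 69706996 to 69726951, minus strand). It had 895, 1027 and 921 TPM in the VP64 line with guides, against 659, 641 and 649 TPM in the VP64 line without guides. The p65 line with guides had 885, 895 and 847 TPM, against 644, 637 and 676 TPM in the p65 line without guides. All libraries with guides were above all of those, and the line without an activation domain, with 1002, 1045 and 984 TPM, overlapped with the VP64 line with guides. The log2 fold change with guides was 0.53 (SE 0.04, adjusted p = 6.62e-10) in the VP64 lines and 0.43 (SE 0.039, adjusted p = 1.71e-08) in the p65 lines. Relative to no activation domain, NQO1 without guides fell by 0.66 on the log2 scale with VP64 (SE 0.04, adjusted p = 1.51e-11) and by 0.66 with p65 (SE 0.04, adjusted p = 1.05e-11). NQO1 in p65 and VP64 lines without guides differed by a log2 fold change of -0.01 (95% interval -0.08 to 0.07).

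HMOX1 encodes the inducible heme oxygenase, which breaks down heme and releases iron (chromosome 22, 35380361 to 35394214, plus strand). It had 13.3, 12.5 and 29.1 TPM in the VP64 line with guides, against 12.7, 13.1 and 17.1 TPM in the VP64 line without guides. In the p65 line with guides it had 29.5, 25.7 and 11.1 TPM, against 16.3, 27.3 and 27.5 TPM in the p65 line without guides. The line without an activation domain had 27.2, 13.1 and 13.5 TPM. Within 4 of the 5 lines 1 library stood well away from the other two, and all lines overlapped with their neighbours in the order of means. With 252 to 728 counts per library, HMOX1 did not pass in any of the 7 comparisons. The log2 fold change with guides was 0.36 (95% interval -0.30 to 1.03) in the VP64 lines and -0.11 (-0.72 to 0.50) in the p65 lines. Without the low-count filter HMOX1 was called in 6 of the 7 comparisons, with the same overlapping libraries, and with only the libraries compared it was called for p65 against VP64 without guides (0.75).

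Glutathione synthesis starts with glutamate-cysteine ligase, whose catalytic subunit is encoded by GCLC and whose modifier subunit by GCLM. GCLM (chromosome 1, 93885205 to 93909456, minus strand) had 12.8, 13.1 and 13.8 TPM in the VP64 line with guides, against 18.5, 18.4 and 16.9 TPM in the VP64 line without guides. The p65 line with guides had 12.5, 12.9 and 13.4 TPM, against 22.2, 19.9 and 19.3 TPM in the p65 line without guides. All 6 libraries with guides lay below all 9 others, among them the 17.5, 17.7 and 17.8 TPM without an activation domain. GCLM fell with guides by 0.43 on the log2 scale in the VP64 lines (SE 0.058, adjusted p = 3.13e-06) and by 0.68 in the p65 lines (SE 0.056, adjusted p = 3.99e-09), or by 25.7% and 37.5%. The fall in the p65 lines was larger by 0.25 on the log2 scale, a difference that did not pass (interaction -0.25, SE 0.081, adjusted p = 0.176).

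Without guides, GCLM was higher in the p65 line than in the line without an activation domain (log2 fold change 0.22, SE 0.054, adjusted p = 0.00163), and the libraries did not overlap. It was also 0.22 higher in the p65 than in the VP64 line (SE 0.055, adjusted p = 0.0345). That difference from VP64 was no longer called on leaving out any of the 6 libraries but p65 replicate C. It was also lost with the replicate letter as a block, with only the libraries compared and with an offset from effective lengths. Over all alternatives the adjusted p ran from 0.0141 to 0.249. VP64 without guides and no activation domain differed by 0.00 (95% interval -0.10 to 0.11).

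GCLC (chromosome 6, 53497341 to 53616970, minus strand) was called in neither guide comparison, unlike its partner, and was not tested against it. It had 11.1, 11.6 and 11.1 TPM in the VP64 line with guides, against 12.5, 12.2 and 10.2 TPM in the VP64 line without guides. In the p65 line with guides it had 11.7, 11.0 and 13.2 TPM, against 12.6, 11.9 and 15.6 TPM in the p65 line without guides. In both pairs the libraries overlapped, and neither log2 fold change passed, at 0.03 (95% interval -0.12 to 0.18) with VP64 and -0.16 (-0.30 to -0.01) with p65 (adjusted p = 0.773 and 0.0964). The line without an activation domain had 13.0, 14.4 and 15.1 TPM. VP64 without guides was lower than that line (log2 fold change -0.36, SE 0.073, adjusted p = 0.000308). For p65 without guides the value was -0.15 (adjusted p = 0.0812), and it passed only without p65 replicate C (-0.20). The ratio of GCLM to GCLC in TPM, again computed with the levels known, averaged 1.18 ± 0.0584 and 1.09 ± 0.0827 in the VP64 and p65 lines with guides, 1.55 ± 0.0866 and 1.56 ± 0.28 in the same lines without guides, and 1.25 ± 0.0838 without an activation domain (SD, n = 3).

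**Figure D2:**
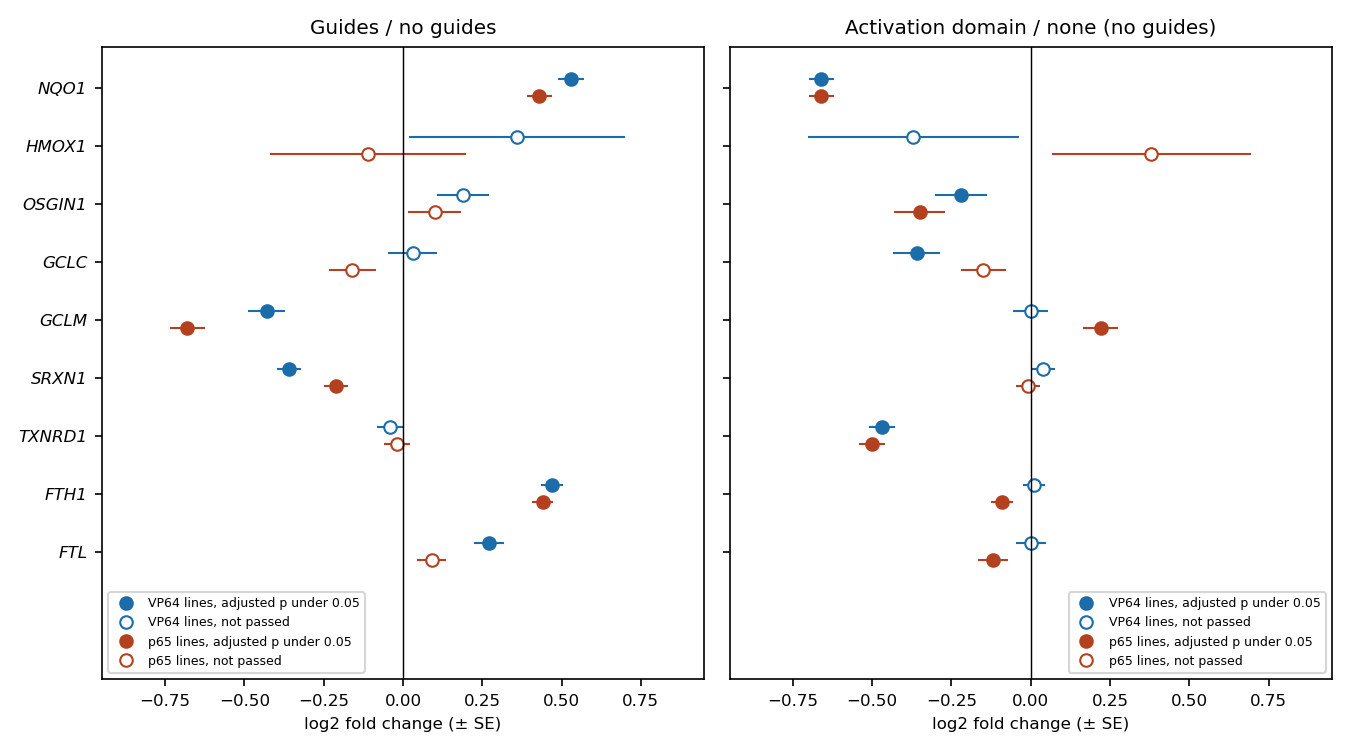
Log2 fold changes (± SE) of the 9 genes in edgeR for guides over no guides (left) and for an activation domain over none in lines without guides (right); filled points have an adjusted p under 0.05. FTH1 and NQO1 lie right of 0 and GCLM and SRXN1 left of it in both guide comparisons. NQO1 and TXNRD1 lie near -0.66 and -0.5 in the right panel, where the comparisons share the libraries without an activation domain. The VP64 and p65 lines without guides enter both panels, on opposite sides of the ratio.

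SRXN1 encodes sulfiredoxin, which restores overoxidised peroxiredoxins (chromosome 20, 646615 to 653370, minus strand). It had 83.6, 87.2 and 86.8 TPM in the VP64 line with guides, against 112, 105 and 110.2 TPM in the VP64 line without guides. The p65 line with guides had 87.6, 88.9 and 95.3 TPM, against 107, 105 and 105 TPM in the p65 line without guides. Every library with guides was below every library without, and the 3 libraries without an activation domain (103, 103 and 105 TPM) lay with the others without guides. SRXN1 fell by 0.36 on the log2 scale in the VP64 lines (SE 0.038, adjusted p = 1.25e-07) and by 0.21 in the p65 lines (SE 0.038, adjusted p = 0.000162). The difference between these effects, 0.16 (SE 0.054), did not pass (adjusted p = 0.211). Against no activation domain, SRXN1 stood at a log2 fold change of 0.04 (95% interval -0.03 to 0.12) with VP64 and -0.01 (-0.09 to 0.06) with p65.

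TXNRD1 encodes cytosolic thioredoxin reductase, a selenoprotein that keeps thioredoxin reduced (chromosome 12, 104215779 to 104350305, plus strand). It had 176, 200.1 and 203 TPM in the VP64 line with guides and 197, 191 and 191 TPM in the p65 line with guides. It had 199, 202 and 195 TPM in the VP64 line without guides and 207, 198 and 175 TPM in the p65 line without guides. These 4 lines overlapped throughout, and the 274, 264 and 268 TPM without an activation domain lay above all of them. TXNRD1 fell relative to no activation domain by 0.47 on the log2 scale with VP64 (SE 0.041, adjusted p = 4.08e-09) and by 0.50 with p65 (SE 0.041, adjusted p = 1.63e-09), each without guides. The guide comparisons gave -0.04 (95% interval -0.12 to 0.04) with VP64 and -0.02 (-0.10 to 0.06) with p65 and did not pass (adjusted p = 0.49 and 0.8). TXNRD1 and NQO1 were thus lower in both lines with an activation domain and no guides, but NQO1 rose with guides in each pair and TXNRD1 did not pass. The libraries of these lines enter both kinds of comparison, on opposite sides, so the fall and the rise of NQO1 are not independent.

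OSGIN1 encodes an oxidative stress induced growth inhibitor (chromosome 16, 83948282 to 83966332, plus strand). It had 21.7, 20.4 and 22.1 TPM in the VP64 line with guides, against 19.6, 17.6 and 18.3 TPM in the VP64 line without guides. In the p65 line with guides it had 18.6, 19.1 and 16.2 TPM, against 19.0, 15.9 and 16.9 TPM in the p65 line without guides. The VP64 libraries did not overlap, but the log2 fold change of 0.19 (SE 0.082) did not pass (adjusted p = 0.0731). It passed in 2 of 15 alternatives, a minimum mean of 1 CPM (0.207, adjusted p = 0.0455) and only the libraries compared (0.19, adjusted p = 0.0379). The p65 libraries overlapped at 0.10 (SE 0.083, adjusted p = 0.363). The line without an activation domain had 18.6, 23.3 and 21.5 TPM and overlapped with each of the others. Without guides, OSGIN1 was lower than in that line with p65 (-0.35, SE 0.081, adjusted p = 0.00102) and with VP64 (-0.22, SE 0.081, adjusted p = 0.0294). The VP64 call was lost in DESeq2 (adjusted p = 0.0729) and with an offset from effective lengths (adjusted p = 0.0921). It was also lost without VP64 replicate B or C or without the B or C library that has no activation domain. Without that B library the value was -0.13 (adjusted p 0.00974 to 0.225 over all alternatives).

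**Figure D3:**
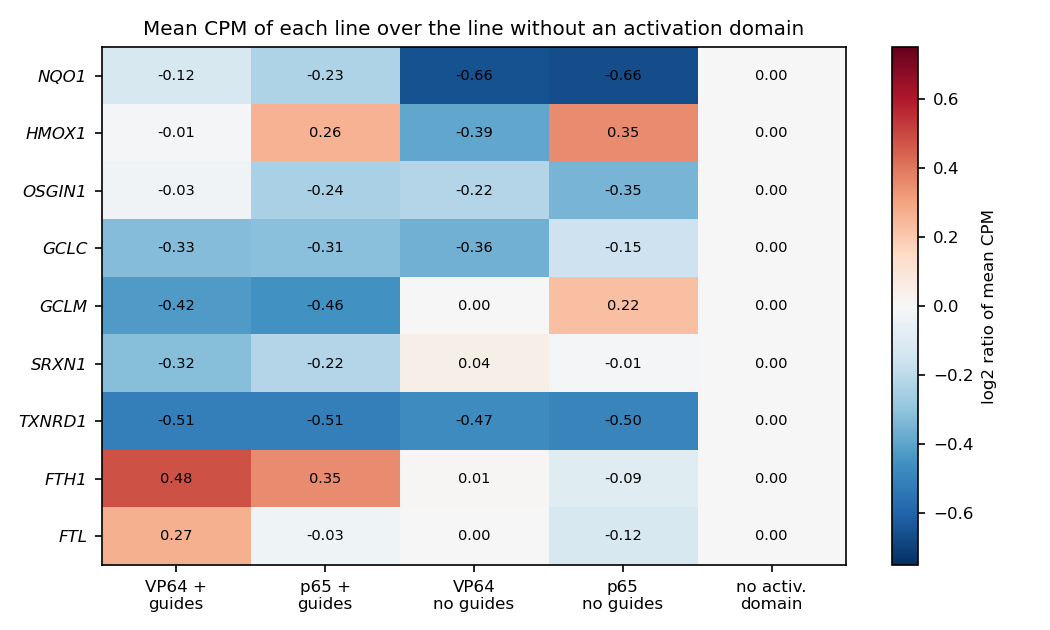
Log2 ratio of the mean CPM (counts scaled to library size) of each line to that of the line without an activation domain, for the 9 genes; lines with guides are at the left and red is higher. TXNRD1 is at -0.51 to -0.47 in all 4 lines with an activation domain, GCLM (-0.42 and -0.46) and SRXN1 (-0.32 and -0.22) are low in the lines with guides, and FTH1 is high there (0.48 and 0.35).

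The levels of the 9 genes lay far apart. By mean TPM over all libraries, FTH1 (3355), FTL (2087) and NQO1 (827) were the highest, followed by TXNRD1 (209) and SRXN1 (99.0), and HMOX1, OSGIN1, GCLM and GCLC lay between 12.5 and 19.3. The range between the highest and the lowest line mean, in log2 CPM, was 0.74 for HMOX1, 0.68 for GCLM and 0.66 for NQO1, and 0.35 to 0.56 for the other 6. Among 9384 genes that averaged 10 CPM or more, those whose line means over the 5 lines lay nearest to GCLM were FBXO45, C18orf54 and ZBTB21, at root mean square distances of 0.0419 to 0.048 log2 units. Nearest to NQO1 were LYST, ARHGEF2 and HECTD3 (0.0399 to 0.0448), and nearest to HMOX1 were RGPD5, GABBR1 and ZFAT (0.123 to 0.149). HMOX1, the gene with the largest spread within lines, thus had no neighbour as close as the others did.

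The regulators of NRF2 were read from the same fit. Of 9, 5 rose and 0 fell with guides in the VP64 lines, and 4 rose and 1 fell in the p65 lines, with medians of 0.14 and 0.08. Of all genes, 19.3% rose and 21.3% fell in the VP64 lines and 18.7% rose and 20.2% fell in the p65 lines. In the VP64 lines 1 was lower at an unadjusted p under 0.05, and DESeq2 called 5 higher and 0 lower. SQSTM1, an autophagy adaptor that binds KEAP1, had 1021 ± 29.3 and 913 ± 65.4 TPM in the VP64 and p65 lines with guides, against 615 ± 6.98 and 550 ± 55.2 TPM without (SD, n = 3). Its log2 fold changes were 0.70 (SE 0.036, adjusted p = 3.57e-12) and 0.72 (SE 0.036, adjusted p = 1.1e-12). The small MAF genes MAFF (0.51 and 0.61) and MAFK (0.25 and 0.35) also rose in both, and MAFG in the VP64 lines (0.14), a call lost without VP64 replicate C with guides. NFE2L1, a relative of NRF2, rose in the p65 lines (0.24), where CUL3, the scaffold of the KEAP1 ligase, fell (-0.11), a call lost under 10 of the alternatives.

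NFE2L2, which encodes NRF2 itself, had 43.3 ± 1.87 and 38.4 ± 0.803 TPM in the VP64 and p65 lines with guides, against 37.7 ± 0.185 and 37.2 ± 0.797 TPM without. It rose in the VP64 lines (0.16, SE 0.044, adjusted p = 0.00589) and stood at 0.08 in the p65 lines (adjusted p = 0.137). KEAP1 (-0.09 and -0.05) and BACH1 (-0.12 and 0.01) did not pass in either. Relative to no activation domain, NFE2L2 was lower without guides with VP64 (-0.14, adjusted p = 0.00919) and with p65 (-0.19, adjusted p = 0.001), and BACH1 was lower too (-0.23 and -0.33). The VP64 call of NFE2L2 was lost without VP64 replicate B or the A library without an activation domain. KEAP1 was higher with VP64 (0.15, adjusted p = 0.0185), a call lost without VP64 replicate A or the A or C library without an activation domain, and stood at 0.07 with p65. In these comparisons 2 regulators rose and 4 fell with VP64, where 23.6% of all genes rose and 24% fell, and 1 rose and 4 fell with p65, where 24.7% rose and 24.9% fell. Among them were the falls of SQSTM1 (-0.28 and -0.46) and MAFF (-0.20 and -0.49), while NFE2L1 rose (0.42 and 0.34). The MAFF call with VP64 was lost without VP64 replicate B or C or the A library without an activation domain. Between p65 and VP64 without guides, SQSTM1 (-0.18) and MAFF (-0.30) fell; the first call was lost without p65 replicate A and the second without any of 5 libraries. With guides, SQSTM1 fell (-0.16) and NFE2L1 rose (0.12), calls that were lost without VP64 replicate B among others.

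Other known NRF2 targets rose more often than they fell with guides. Of 36 listed, 33 were tested; 21 rose and 2 fell in the VP64 lines, and 17 rose and 1 fell in the p65 lines, with 16 rising in both and medians of 0.29 and 0.23. Over all genes 19.3% rose and 21.3% fell in the VP64 lines, 18.7% rose and 20.2% fell in the p65 lines, and 13.8% rose in both. IDH1, a cytosolic source of NADPH, had 56.7 ± 2.76 and 45.3 ± 4.18 TPM in the VP64 and p65 lines with guides, against 28.3 ± 1.02 and 27.2 ± 1.07 TPM without. Its log2 fold changes were 0.95 and 0.75. SLC7A11, the cystine importer that feeds glutathione synthesis, also rose (0.73 and 0.53), as did biliverdin reductase BLVRB (0.50 and 0.58) and the exporter ABCC2 (1.99 and 3.18, at low levels of 1.65 ± 0.179 and 5.01 ± 0.927 TPM with guides, against 0.487 ± 0.199 and 0.713 ± 0.458 TPM without). TRIM16L (1.32 and 1.80) and TRIM16 (0.95 and 1.41) rose too, but they are near-identical paralogs whose shared reads could have been split between them. Unlike SLC7A11 and IDH1, GCLM fell in both pairs.

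Relative to no activation domain, 6 of the 33 other targets rose and 15 fell with VP64 without guides, and 7 rose and 17 fell with p65, with medians of -0.20 and -0.38. Among all genes 23.6% rose and 24% fell with VP64, and 24.7% rose and 24.9% fell with p65, so the counts of targets that rose lay near or under the share of all genes. IDH1 had 28.3 ± 1.02 and 27.2 ± 1.07 TPM in the VP64 and p65 lines, against 45.6 ± 2.02 TPM without an activation domain (log2 fold changes -0.72 and -0.79). Thioredoxin itself, TXN, the substrate of TXNRD1, was at 751 ± 25.7 and 753 ± 9.44 TPM, against 1015 ± 33.4 TPM (-0.47 and -0.48). SLC7A11 (-0.77 and -0.96) and the pentose phosphate enzyme TKT (-0.48 and -0.57) fell, and the exporter ABCC1 rose (0.52 and 0.63). TXN also fell with guides in both pairs (-0.16 each). Between p65 and VP64, none of the 33 passed without guides, with 4 higher and 6 lower at an unadjusted p under 0.05 and 0 higher and 1 lower in DESeq2. With guides 4 rose, led by ABCC2 (1.46) and TRIM16L (0.35), and 5 fell, among them TKT (-0.23) and SLC7A11 (-0.38).

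**Figure D4:**
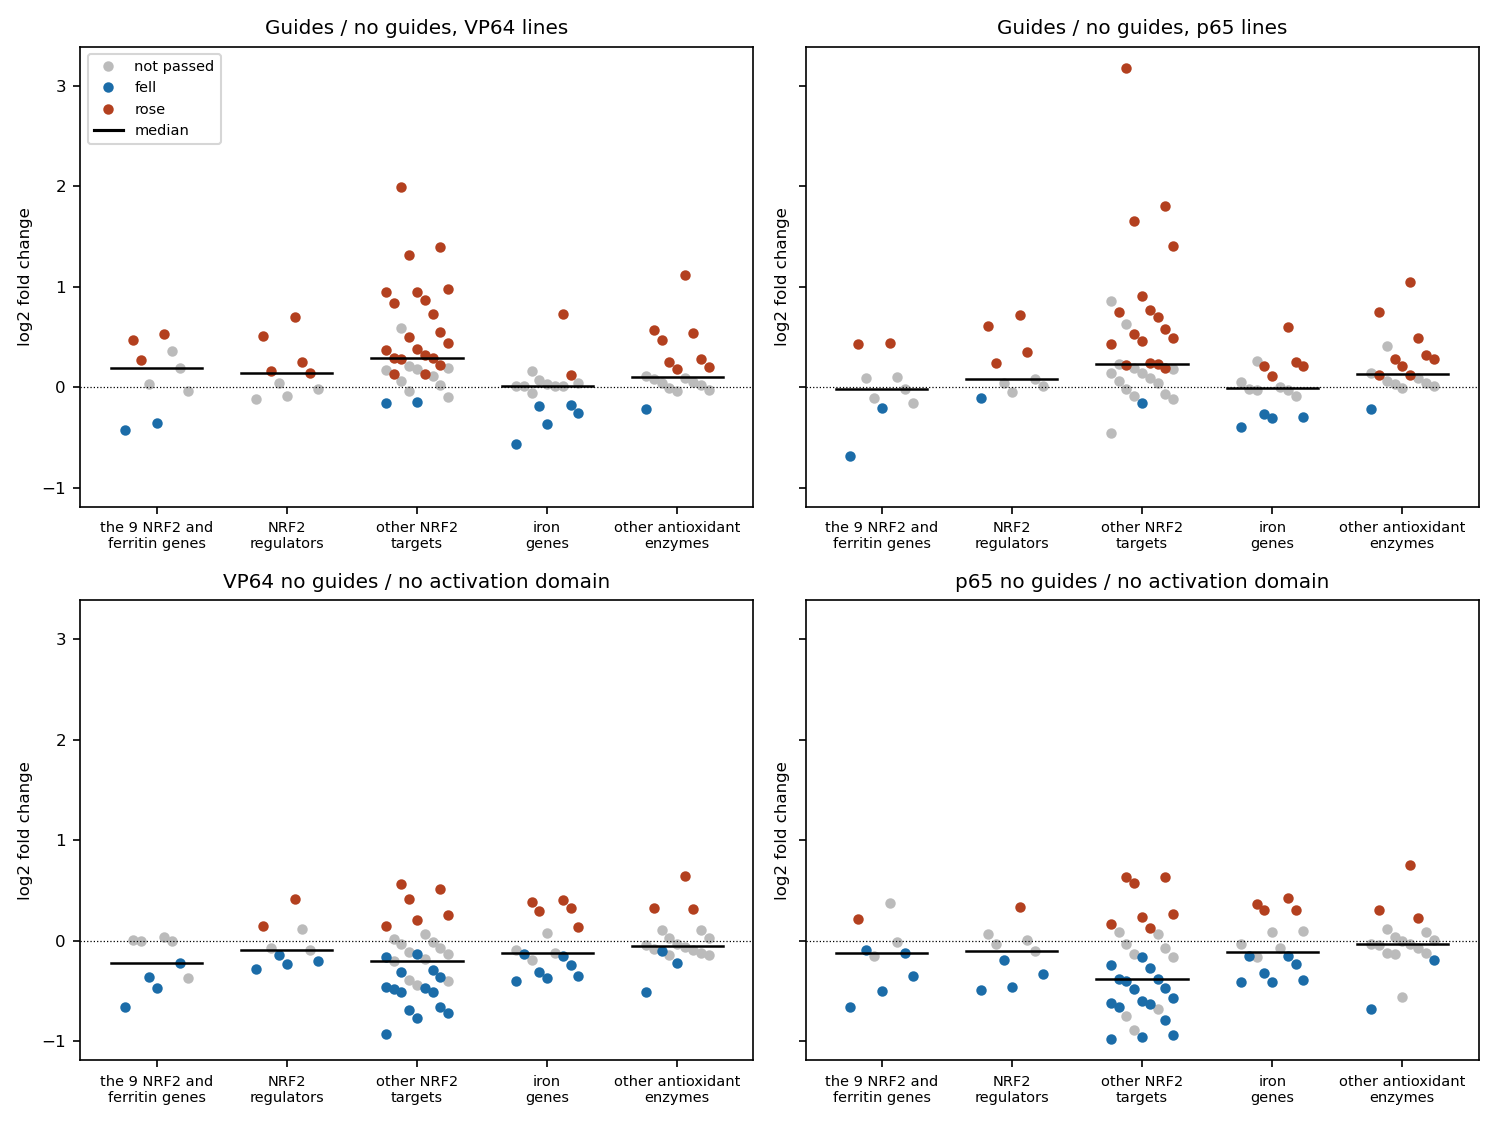
Log2 fold changes of the 9 genes and of the tested members of 4 lists in the guide comparisons (top) and in the comparisons with the line without an activation domain (bottom), coloured by call, with each list's median as a bar. The other NRF2 targets lie mostly above 0 with guides (medians 0.29 and 0.23) and mostly below 0 in the lower panels (medians -0.20 and -0.38). The lower panels share the libraries without an activation domain. The VP64 and p65 lines without guides enter the top and bottom panels on opposite sides, so these are not independent. The 9 genes spread to both sides of 0 with guides.

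Iron genes were called in both directions. Of 18 listed, 16 were tested; 2 rose and 5 fell with guides in the VP64 lines, and 5 rose and 4 fell in the p65 lines, with medians of 0.01 and -0.01. The shares of all genes were 19.3% rising and 21.3% falling in the VP64 lines and 18.7% and 20.2% in the p65 lines. TFRC, the transferrin receptor, whose mRNA is stabilised by the iron regulatory proteins when iron is low, had 46.6 ± 6.19 and 52.2 ± 6.0 TPM in the VP64 and p65 lines with guides, against 64.3 ± 1.25 and 61.8 ± 4.56 TPM without. It fell by 0.57 on the log2 scale in the VP64 lines (SE 0.045, adjusted p = 2.09e-09) and by 0.30 in the p65 lines (SE 0.045, adjusted p = 1.59e-05), while FTH1 rose in each. The p65 call of TFRC was lost with an offset from effective lengths. NCOA4, which carries ferritin to lysosomes, rose by 0.12 and 0.11, calls lost without VP64 replicate B with guides in the first pair and without p65 replicates A or C with guides or C without guides in the second. The heme exporter FLVCR1 fell (-0.37 and -0.40) and HFE, a partner of the transferrin receptor, rose (0.73 and 0.60). HMOX2, the constitutive heme oxygenase, and STEAP3, a ferrireductase, rose in the p65 lines (0.21 and 0.25).

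RNA of the genes for the iron regulatory proteins, which bind the ferritin elements shown above, differed mainly between lines with and without an activation domain. The proteins and their binding were not measured. IREB2 had 15.3 ± 0.716 and 18.1 ± 1.94 TPM in the VP64 and p65 lines with guides, against 15.5 ± 0.427 and 17.0 ± 0.682 TPM without, and did not pass in either guide comparison (0.01 and -0.03). Relative to the 12.7 ± 1.16 TPM without an activation domain it rose with VP64 (0.30, adjusted p = 4.06e-05) and with p65 (0.43, adjusted p = 3.07e-07), each without guides. ACO1, which encodes the other regulatory protein, fell with guides in the VP64 lines (-0.19, adjusted p = 0.0109), a call lost without replicate C of either line, and rose relative to no activation domain (0.41 and 0.37). In the comparisons with no activation domain 5 iron genes rose and 7 fell with VP64, and 4 rose and 7 fell with p65, beside 23.6% and 24% of all genes with VP64 and 24.7% and 24.9% with p65. TFRC fell there too (-0.15 and -0.23), the VP64 call being lost without the B library that has no activation domain. The iron chaperone PCBP1 fell (-0.31 and -0.32), and FBXL5, which marks IREB2 for degradation (0.33 and 0.31), and HMOX2 (0.39 and 0.31) rose. Between p65 and VP64, none of the 16 passed without guides (1 higher and 0 lower at an unadjusted p under 0.05, none in DESeq2), and 3 rose with guides, TFRC, HMOX2 and STEAP3, each a call lost without 1 of the libraries, such as VP64 replicate B for TFRC and VP64 replicate C for the other two.

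All 18 genes listed as other antioxidant enzymes were tested. With guides 8 rose and 1 fell in the VP64 lines, and 9 rose and 1 fell in the p65 lines, with medians of 0.10 and 0.13. Of all genes, 19.3% rose and 21.3% fell in the VP64 lines and 18.7% rose and 20.2% fell in the p65 lines. The list and both counts of risers include TXNIP, an inhibitor of thioredoxin and not an enzyme. The glutathione peroxidase GPX1 had 680 ± 29.4 and 726 ± 42.5 TPM in the VP64 and p65 lines with guides, against 559 ± 18.4 and 531 ± 17.9 TPM without (log2 fold changes 0.28 and 0.49). GPX4, which reduces lipid peroxides and protects from ferroptosis, rose by 0.47 and 0.32, and glutaredoxin GLRX by 0.57 and 0.75. Catalase, CAT (0.54 and 0.28), and peroxiredoxin PRDX5 (0.25 and 0.28) rose as well, as did TXNIP (1.12 and 1.05), which inhibits thioredoxin. Relative to no activation domain 3 rose and 3 fell with VP64, and 3 rose and 2 fell with p65 (all genes 23.6% and 24%, and 24.7% and 24.9%), with SESN1 (0.64 and 0.75), PRDX5 (0.33 and 0.31) and GPX1 (0.32 and 0.23) higher and TXNIP (-0.51 and -0.68) lower. Between p65 and VP64 with guides 1 rose (GLRX, 0.20) and 2 fell (CAT, -0.24, and GPX4, -0.30); the calls were lost without VP64 replicate A or B for GLRX, VP64 replicate B or p65 replicate C for CAT and p65 replicate C for GPX4. Without guides none of the 18 passed (2 higher and 2 lower at an unadjusted p under 0.05, none in DESeq2).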

How the data were processed

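RNA of 15 libraries was sequenced. The deposited expected counts were, per the file headers, estimated per gene by RSEM, and STAR, RSEM and hg38 are named in the submitters' processing notes. TPM values, deposited beside them, are abundances scaled for length that RSEM wrote, per the file headers. Effective lengths (bases, another unit), also deposited, entered 1 alternative only. Tool versions and whether counting used strand are not given by the labels or headers, so reads of overlapping antisense genes cannot be told apart; antisense genes held at most 0.25%, and overlapping genes on the same strand at most 0.463%, of the counts of any of the 9 genes in a library. Of 58813 entries, 58721 matched GENCODE release 29; the other 92 (at most 7 counts in a library) were left out.

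Expected counts were rounded and fitted in edgeR 4.0.16 (R 4.3.3) by quasi-likelihood, with TMM scaling (factors 0.983 to 1.01), filterByExpr at a minimum count of 10, 1 coefficient per line over all libraries, and Benjamini-Hochberg adjustment over all 14961 genes within each of 7 comparisons. Standard errors were derived from the F statistic, and intervals (95%) cover the spread between these libraries only. The intervals use a normal approximation and are therefore somewhat narrower than the quasi-likelihood test implies. The pipeline was tested on simulated counts. Levels are TPM. CPM were computed from the counts.

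The 9 genes, the lists and the naming rule were chosen with earlier results of these data known. The rule names the 9 genes, CD4, NFE2L2, KEAP1, BACH1, TFRC, SLC7A11 and IREB2, up to 5 genes per list with the smallest p in each guide comparison and up to 3 in each other one, and the 3 genes nearest in line means to each of the 3 members with the widest range.

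Alternatives were DESeq2 size factors, DESeq2 1.42.0, no filter, a minimum mean of 1 CPM, only the libraries compared, a replicate block, unrounded counts, an effective-length offset, leaving out each library and, added after seeing the data, ferritin pseudogene counts summed with their parents. A listed gene that counts among the totals is not reported by name here.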

Additional observations from a re-analysis of the deposited data

Results flagged for a closer look

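None of the 9 genes met a rule for a closer look. The difference between the guide effects, p65 minus VP64, passed in edgeR for 5 genes of the 4 lists. For TRIM16L the guide effects were 1.80 (p65) and 1.32 (VP64), a difference of 0.48 (SE 0.083, adjusted p = 0.00357), and for its paralog TRIM16 they were 1.41 and 0.95, a difference of 0.46 (SE 0.087, adjusted p = 0.00731). Both calls held when any 1 library was left out and were lost with an effective-length offset. The transferrin receptor TFRC had guide effects of -0.30 (p65) and -0.57 (VP64), a difference of 0.27 (SE 0.064, adjusted p = 0.0394). HMOX2 had 0.21 (p65) and -0.06 (VP64), a difference of 0.27 (SE 0.064, adjusted p = 0.0358). EPHX1, a microsomal epoxide hydrolase, had -0.09 (p65) and 0.32 (VP64), a difference of -0.41 (SE 0.091, adjusted p = 0.0286). Its TPM, which is scaled for length, gave another picture than these counts. In the p65 lines it was 38.3 ± 2.87 with guides and 51.7 ± 3.14 without, with no overlap. In the VP64 lines it was 50.5 ± 8.07 and 45.5 ± 7.55, with overlap. The EPHX1 difference ran from -0.56 to -0.345 over all alternatives. The last 3 calls were lost on leaving out most single libraries: their adjusted p ran to 0.55, 0.7 and 0.369 over all alternatives, the highest with an effective-length offset.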

How the results depend on the processing

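For the 9 genes, 913 of the values recomputed under the alternatives kept their direction and side of the threshold, 33 no longer passed, 11 passed newly and 42 that did not pass either way changed sign (12 of them FTL for VP64 without guides against no activation domain); none of the called values changed sign. Among list genes 7761 kept both, 283 no longer passed, 80 passed newly and 278 that did not pass either way changed sign. The called value of TRIM16 for VP64 without guides against no activation domain (-0.16) became 0.002 with an effective-length offset.

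Of the 9 genes, 1 was called for p65 against VP64 without guides, against 2 without a low-count filter, 0 with the replicate block, 0 with the effective-length offset and 0 to 1 on leaving out a library. With guides 2 were called, against 3 without a low-count filter, 1 with only the libraries compared, 1 with the effective-length offset and 1 to 2 on leaving out a library. For the difference of guide effects 0 were called, against 1 without a low-count filter (HMOX1). The labels do not say whether the replicate letters pair the samples. Correlations of same-letter deviations from line means ran from -0.343 to 0.19 over 30 pairs of libraries. A pair with different letters reached 0.339, and such correlations cannot settle whether the letters pair the samples. The block also took FTH1 from the calls of p65 against no activation domain and changed no other call of the 9 genes. The causes were not tested. Over all genes, calls for p65 against VP64 without guides numbered 315, against 545 without a filter, 109 with the effective-length offset and at least 185 on leaving out a library. With guides they numbered 1185, against 706 with only the libraries compared, 437 with the offset and at least 681 on leaving out a library. For the difference of guide effects they numbered 143, against 360 without a filter, 236 in DESeq2, 31 with the offset and at least 91 on leaving out a library, and for guides in the p65 lines 5823, against 3851 with the offset. Depth limited no call of the 9 genes to few counts, the lowest being 252.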
